A study of Mus musculus with 16 samples.

Results

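Renin (Ren1) and Akr1b7, an aldo-keto reductase gene that marks renin-producing cells in the mouse kidney, were followed through 16 RNA-seq libraries of isolated glomeruli. They are 2 of the 25791 gene symbols in the table, and both are among the 13286 genes that reached 1 FPKM in at least 7 libraries and were tested. FPKM, the unit of the levels given, counts fragments relative to the length of the transcript and to all fragments mapped in the library, so levels can be set side by side between genes. Both were chosen by their FPKM in these libraries, which earlier results of these data had put high in the drug-treated group, and that contrast is therefore described for them with no test. In 7 libraries, called RAAS-blocked here, the mice had drunk water with 2 drugs against the renin-angiotensin-aldosterone system (RAAS) between 10 to 12 and 26 weeks of age. These were losartan at 30 mg/day, which blocks the type 1 receptor of angiotensin II, and lisinopril at 20 mg/day, which blocks the enzyme that makes angiotensin II. The other 9 libraries came from untreated mice, for which the labels state no age of their own. Every mouse of both groups ate a standard diet and carried eNOS-/- and db/db, that is, it lacked endothelial nitric oxide synthase and functional leptin receptor in the whole body, so the untreated mice are diabetic too and no healthy group is part of the comparison. The labels name neither the strain nor the mouse behind each library, and each library is taken to be 1 mouse.

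Renin is the protease that cuts angiotensinogen to start the cascade that ends in angiotensin II and aldosterone. In the adult kidney it is made mainly by juxtaglomerular cells, modified smooth muscle cells in the wall of the afferent arteriole where it enters the glomerulus, and angiotensin II acting on its type 1 receptor holds renin production down. When demand for renin lasts, smooth muscle cells further along the arteriole, and mesangial cells, can take up renin production again. Akr1b7 encodes a cytosolic reductase of reactive aldehydes that is abundant in the mouse adrenal cortex and is made by renin cells of the mouse kidney.

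The stretch from 250 bases before to 50 bases after the transcription start is shown for both genes because they varied together between mice, and for Akr1b10, the neighbour of Akr1b7, because its transcript is the most like that of Akr1b7 among the neighbours compared. Sequences are from RefSeq on GRCm38.p6, all on the plus strand: chr1:133350424-133350723 for Ren1, chr6:34412112-34412411 for Akr1b7 and chr6:34383997-34384296 for Akr1b10. Capitals mark TATAAA (the TATA box) in Ren1, and TGACCT, the reverse complement of the core hexamer AGGTCA bound by nuclear receptors, in the other pair.
Ren1: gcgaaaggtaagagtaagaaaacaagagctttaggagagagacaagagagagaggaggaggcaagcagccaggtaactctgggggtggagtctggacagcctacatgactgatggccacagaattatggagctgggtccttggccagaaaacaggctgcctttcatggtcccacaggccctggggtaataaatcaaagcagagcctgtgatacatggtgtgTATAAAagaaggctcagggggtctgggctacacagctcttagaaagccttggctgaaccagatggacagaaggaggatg
Akr1b7: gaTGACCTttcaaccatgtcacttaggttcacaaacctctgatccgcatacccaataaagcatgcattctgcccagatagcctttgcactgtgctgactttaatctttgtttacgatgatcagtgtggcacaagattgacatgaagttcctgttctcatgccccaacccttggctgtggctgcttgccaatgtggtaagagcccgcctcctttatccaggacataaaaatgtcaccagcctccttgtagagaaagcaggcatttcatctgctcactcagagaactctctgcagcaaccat
Akr1b10: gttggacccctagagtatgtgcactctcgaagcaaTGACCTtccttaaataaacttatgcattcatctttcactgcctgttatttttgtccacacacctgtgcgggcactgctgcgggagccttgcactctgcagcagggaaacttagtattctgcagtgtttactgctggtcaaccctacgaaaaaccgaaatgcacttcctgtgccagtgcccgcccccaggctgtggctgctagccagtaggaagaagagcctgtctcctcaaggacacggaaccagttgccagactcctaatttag
Positions are counted from the transcription start. In Ren1, TATAAA lay at -29 to -24. On either strand, 13.6% of 32851 RefSeq promoter windows of 300 bases held TATAAA, and the Akr1b7 window did not. Its TGACCT lay at -248 to -243, and that of Akr1b10 at -215 to -210; 16.3% of windows held this motif on either strand. The cAMP response element TGACGTCA, searched because renin transcription in the mouse depends on cAMP, was in neither member's window and in 1.79% of all windows, and its first bases, TGACG, were in neither and in 20.8%. Akr1b7 and Akr1b10 had the same base at 69.8% of 222 aligned promoter positions and at 84.6% of 1267 aligned transcript positions.

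The libraries were rich in glomerular genes. Nephrin of the podocyte slit diaphragm (Nphs1) lay between 181 and 470 FPKM in RAAS-blocked and between 189 and 433 FPKM in untreated libraries, although Podxl, another podocyte gene, is listed at 0 in all 16. Tubule RNA was present in varying amounts. The mean log2(FPKM + 1) of 11 proximal tubule genes ranged from 0.92 to 4.75 in RAAS-blocked and from 1.28 to 5.42 in untreated libraries. RAAS_blocked replicate 4 stood apart with 16919 symbols above 0, against 17993 to 18613 in the other 15 libraries. 18S ribosomal RNA (Rn18s) lay between 2214 and 9925 FPKM in RAAS-blocked libraries, highest in replicate 4, and is listed at 0 in every untreated library. The library identifiers in the labels form an unbroken run per group, so any step done in that order cannot be told apart from treatment.

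Ren1 was among the most abundant RNAs of most treated glomeruli. In the 7 RAAS-blocked libraries it was at 1289, 765, 443, 1395, 33.5, 1584 and 1362 FPKM (replicates 0 to 6). In the 9 untreated libraries it was at 59.9, 6.92, 25.6, 263, 51.2, 52.9, 46.3, 36.8 and 39.6 FPKM (replicates 0 to 8). All RAAS-blocked libraries except replicate 4 lay above every untreated one, and replicate 4 lay within the untreated range. By level among the 13286 tested genes, Ren1 ranked between 11 and 99 in those 6 libraries and 2528 in replicate 4, whereas in untreated libraries it ranked between 269 (replicate 3) and 8658 (replicate 1). In bulk glomeruli, fewer renin cells and less renin RNA per cell cannot be told apart.

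Akr1b7 showed the same split at a lower level. It was at 31.0, 20.1, 18.6, 30.1, 2.70, 21.2 and 25.2 FPKM in the 7 RAAS-blocked libraries. In the 9 untreated libraries it was at 4.98, 3.26, 4.12, 16.8, 7.03, 7.20, 8.61, 4.76 and 9.24 FPKM. Again 6 of 7 RAAS-blocked libraries exceeded every untreated one, and replicate 4, at 2.70 FPKM, was below all of them. Untreated replicate 3 was the highest untreated library for both genes, and untreated replicate 1 the lowest for both.

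**Figure D1:**
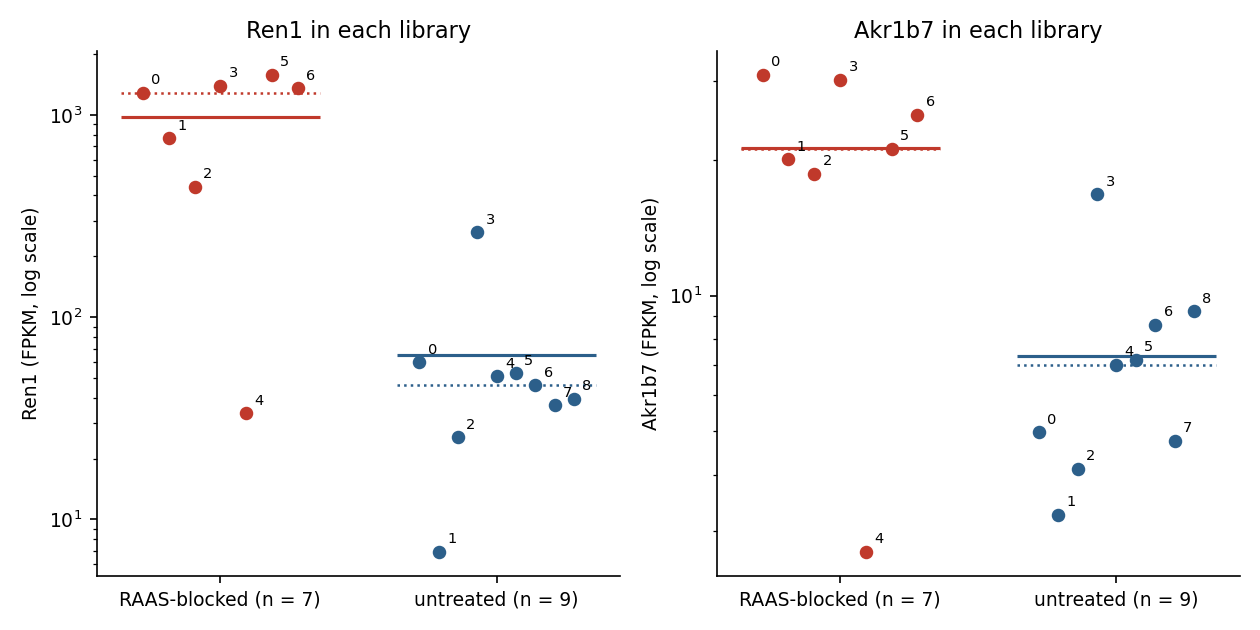
FPKM of Ren1 (left) and Akr1b7 (right) on log axes, 1 point per library, numbered by replicate, with RAAS-blocked libraries left of untreated ones; solid lines are group means and dotted lines medians. In both panels 6 RAAS-blocked libraries sit above all untreated ones, while RAAS_blocked replicate 4 is low and untreated replicate 3 is high.

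The medians of Ren1 were 1289 FPKM in RAAS-blocked and 46.3 FPKM in untreated libraries, a ratio of 27.8. Those of Akr1b7 were 21.2 FPKM in RAAS-blocked and 7.03 FPKM in untreated libraries, a ratio of 3.02. The coefficient of variation of Ren1 was 58.95% in RAAS-blocked and 118% in untreated libraries, and 38.5% without RAAS_blocked replicate 4 and 42.8% without untreated replicate 3. With RAAS_blocked replicate 4 and untreated replicate 3 both left out, the ratio of means was 28.6 for Ren1 and 3.96 for Akr1b7, and over all libraries it was 15.2 and 2.90. On the log2(FPKM + 1) scale, where a pseudocount of 1 shrinks the change of low genes, the difference was 3.85 for Ren1, the second largest of all increases among 13286 tested genes, and 1.32 for Akr1b7, the 8th. The log2 differences were 4.56 and 1.71 without RAAS_blocked replicate 4. Across all genes tested, 5 (0.0376%) had every RAAS-blocked library above every untreated one, and 9 (0.0677%) without RAAS_blocked replicate 4; these shares are background to the choice of the pair and nothing is read from them.

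The excess of Ren1 over Akr1b7 was itself greater under RAAS blockade. Ren1 per Akr1b7, a ratio of FPKM, was between 12.4 and 74.7 (median 41.6) in RAAS-blocked libraries and between 2.12 and 15.7 (median 7.28) in untreated ones. The lowest ratio under blockade was that of replicate 4, and the highest untreated one that of replicate 3, so these are the libraries in which the groups overlap. Without RAAS_blocked replicate 4, 3.58-fold separated the highest and lowest RAAS-blocked Ren1 values and 1.66-fold those of Akr1b7. Without untreated replicate 3, the untreated ranges were 8.66-fold for Ren1 and 2.83-fold for Akr1b7.

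Within each group, libraries with more Ren1 had more Akr1b7. Across the 7 RAAS-blocked libraries Pearson's r between their log2(FPKM + 1) values was 0.97 (exact permutation p = 0.00992, two-sided, the same after Benjamini-Hochberg adjustment over the 2 groups), and Spearman's rho was 0.679 (exact permutation p = 0.1095, adjusted p = 0.1095). Across the 9 untreated libraries r was 0.856 (exact permutation p = 0.00493, adjusted p = 0.00986) and rho was 0.683 (exact permutation p = 0.0503, adjusted p = 0.101). With the 2 libraries farthest from the median Ren1 left out, r was 0.432 in the RAAS-blocked group (n = 5) and 0.405 in the untreated group (n = 7). The relation thus rests on libraries at the ends of the range: RAAS_blocked replicates 2 and 4, and untreated replicates 1 and 3. Without RAAS_blocked replicate 4 alone r was 0.669 (exact permutation p = 0.146, n = 6), and without untreated replicate 3 alone it was 0.687 (exact permutation p = 0.0331, n = 8). Earlier results of these data had already shown both genes low in RAAS_blocked replicate 4. The RAAS-blocked p-values that include this library are therefore no independent support. Among 13284 genes with a defined r in both groups, ordered by the lower of their 2 within-group r with Ren1, Akr1b7 was the 7th, and it had the highest RAAS-blocked r of the 8 named genes that lead this order.

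**Figure D2:**
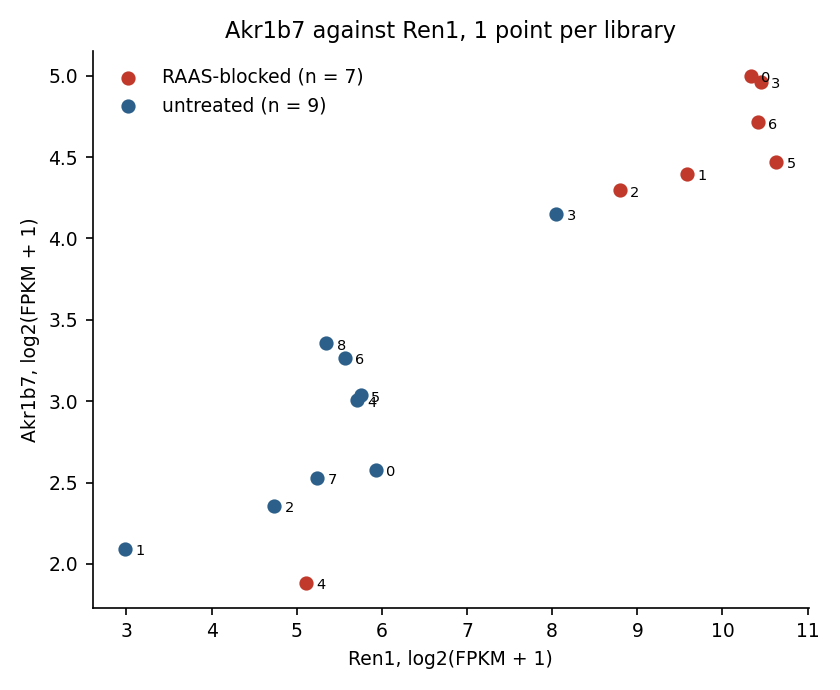
Akr1b7 against Ren1, both as log2(FPKM + 1), 1 point per library, numbered by replicate. RAAS_blocked replicate 4 (Ren1 5.11, Akr1b7 1.89) lies apart from the other RAAS-blocked libraries and beside the untreated ones, and untreated replicate 3 (8.05, 4.15) lies next to the RAAS-blocked ones.

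The relatives of Akr1b7 had small differences between the groups, and none passed the test. Akr1b3, Akr1b8, Akr1b10 and Akr1b7 lie in that order on chromosome 6, with Akr1b3 starting at base 34303930 and Akr1b7 ending at base 34423137 of GRCm38.p6. Akr1b10 was at 11.6 ± 2.82 FPKM in RAAS-blocked (SD, n = 7) and 10.4 ± 2.16 FPKM in untreated libraries (n = 9), a log2 difference of 0.14 ± 0.15 (SE, limma adjusted p = 0.927). Akr1b8 was at 5.69 ± 1.30 FPKM in RAAS-blocked and 5.39 ± 1.57 FPKM in untreated libraries (log2 difference 0.07 ± 0.15, limma adjusted p = 0.955). Akr1b3, the aldose reductase of the polyol pathway, was at 48.2 ± 11 FPKM in RAAS-blocked and 52.5 ± 7.01 FPKM in untreated libraries (log2 difference -0.14 ± 0.12, limma adjusted p = 0.909). Of the 11 aldo-keto reductase genes tested besides Akr1b7, 0 passed an adjusted p of 0.05 in either direction. Of all 13286 genes 2 (0.0151%) passed, Rn18s with a higher and Mgat1 with a lower level. Without RAAS_blocked replicate 4 this background count was 6 (0.0452%). The members, chosen for this contrast, are not left out of such counts, and nothing is read from that. Over all libraries, 0 of the 11 had an unadjusted limma p under 0.05, beside 814 (6.13%) of all genes. The median log2 difference of the 11 was -0.06, and that of all tested genes -0.02. In the order of their log2 differences the rest were Akr1c14 (0.14), Akr1c19 (0.075), Akr1c13 (-0.05), Akr1e1 (-0.06), Akr1a4 (-0.14), Akr1c21 (-0.17), Akr1c12 (-0.17) and Akr7a5 (-0.26).

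Akr1b10 nevertheless varied with Ren1 inside the groups, with r of 0.841 in RAAS-blocked and 0.739 in untreated libraries. Of the 11 tested aldo-keto reductases besides Akr1b7, 2 had an r of at least 0.7 with Ren1 across RAAS-blocked libraries (15.7% of all genes). Across untreated libraries it was 1 of the 11 (6.73% of all genes). The median r of the 11 was 0.463 in RAAS-blocked and -0.279 in untreated libraries. For Akr1b10, values without the extreme libraries were lower. Without RAAS_blocked replicate 4 and untreated replicate 3 its r were 0.470 and 0.626. Akr1b7 and Akr1b10 are similar enough for reads to be shared. In GENCODE transcripts, 31 of the 1232 windows of 50 bases in Akr1b7 (2.52%) also occur in Akr1b10, Akr1b8 or Gm15806, and how the authors' software split such reads was not tested. None (0 of 1543) of the 50-base windows of Ren1 occurs in another gene of that annotation. Some mouse strains carry a renin duplicate, Ren2, which was not analysed here, and with the strain not named its share of the Ren1 values was not tested. The adrenal cortex is another tissue rich in Akr1b7. Of 10 adrenal cortex markers 1 passed the filter, Star, at 1.88 to 2.48 FPKM in RAAS-blocked and 2.06 to 3.07 FPKM in untreated libraries. Cyp11a1 did not exceed 0.497 FPKM in RAAS-blocked and 0.247 FPKM in untreated libraries. Cyp11b1 and Hsd3b6 are listed at 0 in all 16, but so is Podxl, and a listed 0 in this table is no measure of absence. The part of adrenal RNA in the Akr1b7 values was not tested.

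The other aspartic proteases, the protein family of renin, were also near their untreated levels. Ctsd (cathepsin D, of lysosomes) was at 440 ± 78.8 FPKM in RAAS-blocked and 474 ± 74.7 FPKM in untreated libraries (log2 difference -0.11 ± 0.12, SE). Napsa (napsin A) was at 21.8 ± 10.7 FPKM in RAAS-blocked and 29.8 ± 23.5 FPKM in untreated libraries, and the beta-secretases Bace1 and Bace2 differed by -0.03 ± 0.10 and -0.01 ± 0.19 on the log2 scale. None of these 4 tested genes passed (0 of 4 at an adjusted or an unadjusted limma p of 0.05). Per length, Ren1 exceeded Ctsd in all RAAS-blocked libraries but replicate 4, where Ctsd was at 402 FPKM.

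**Figure D3:**
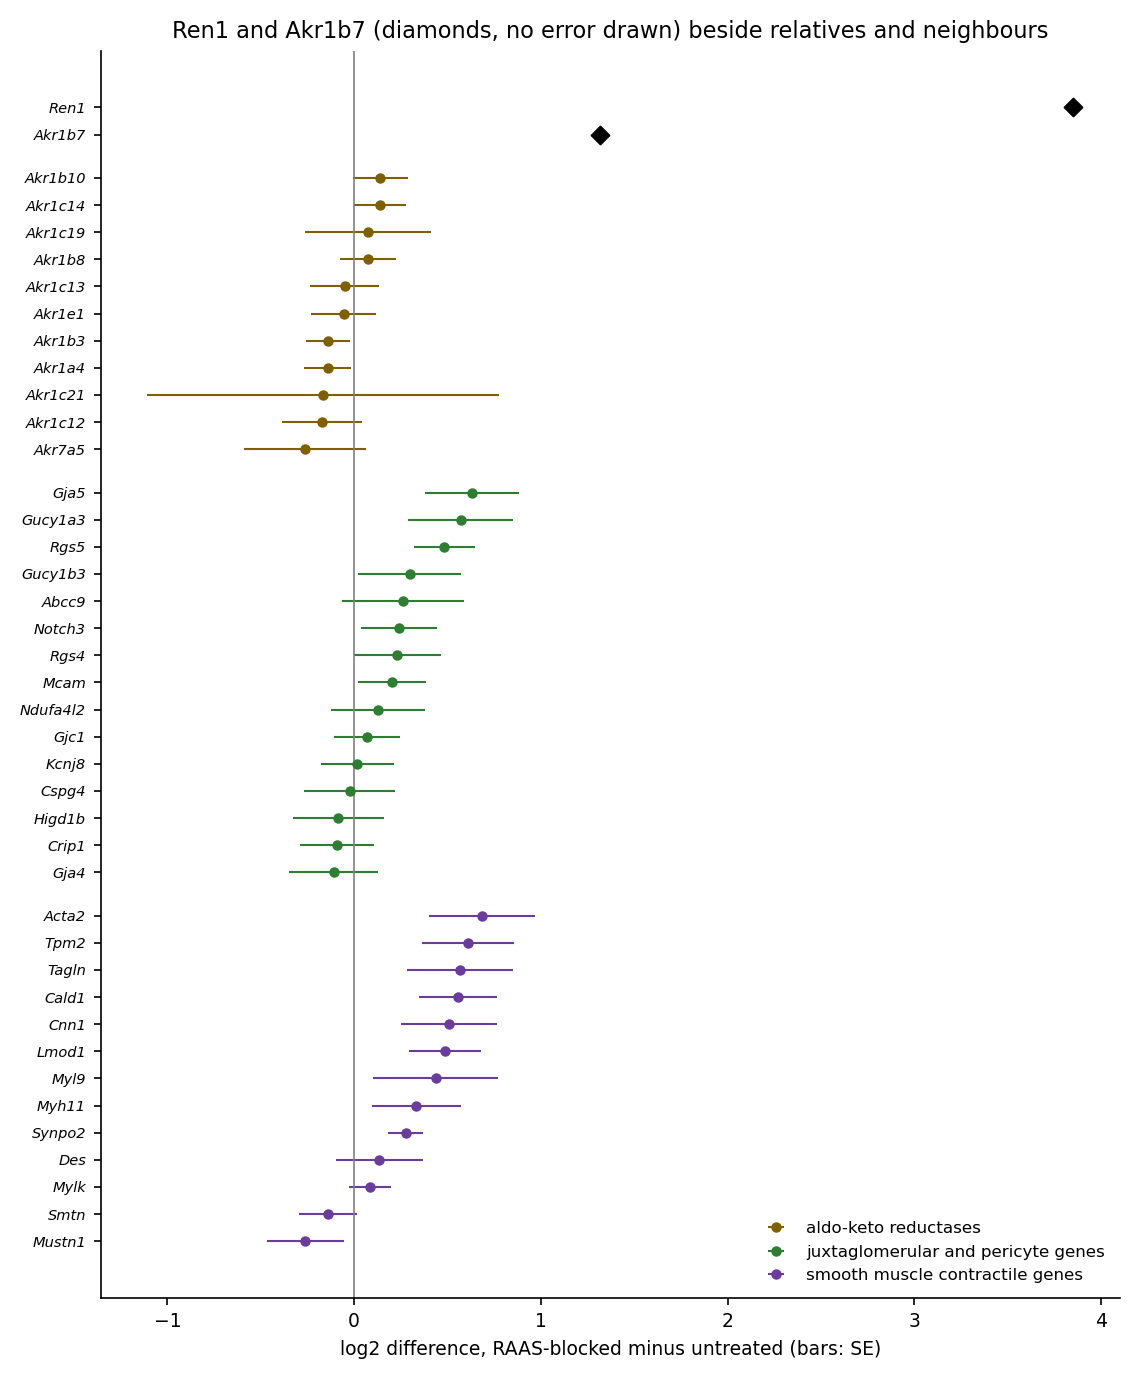
Log2 difference of log2(FPKM + 1), RAAS-blocked minus untreated, for Ren1 and Akr1b7 (diamonds, no error drawn because they were chosen for it) and for the tested aldo-keto reductases, juxtaglomerular and pericyte genes and smooth muscle contractile genes, with bars for the SE from limma. The members stand at 3.85 and 1.32, and of the other genes shown none passed an adjusted p of 0.05.

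Genes that drive renin production showed no difference that passed the test. Of 20 tested genes of renin stimulation and cAMP signalling, 9 had higher and 11 lower means under blockade, where 44.7% of all tested genes had higher ones. Of the 20, 0 passed in either direction, 0 had an unadjusted limma p under 0.05, and the median log2 difference was -0.005. Ptgir, the prostacyclin receptor, was at 3.76 ± 0.875 FPKM in RAAS-blocked and 2.73 ± 1.93 FPKM in untreated libraries (log2 difference 0.44 ± 0.21, SE). Crem, a transcription factor of the cAMP pathway, was at 17.1 ± 10.1 FPKM in RAAS-blocked and 11.9 ± 2.30 FPKM in untreated libraries, and its highest value, 39.1 FPKM, was that of RAAS_blocked replicate 6. The adenylyl cyclases Adcy5 and Adcy6, which calcium inhibits, differed by -0.195 ± 0.135 and -0.226 ± 0.162 on the log2 scale.

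Among 21 tested genes of renin inhibition, calcium signalling and phosphodiesterases, 11 had higher and 10 lower means, and 0 passed. At an unadjusted limma p under 0.05 there was 1 higher gene and there were 3 lower ones (19.0% of the list, beside 6.13% of all tested genes). The higher gene was Ednra, the endothelin A receptor of vascular smooth muscle, at 6.81 ± 0.997 FPKM in RAAS-blocked and 4.57 ± 1.58 FPKM in untreated libraries (log2 difference 0.54 ± 0.17, limma adjusted p = 0.655). The lower ones were Ednrb, the endothelin B receptor, at 65.1 ± 33.5 FPKM in RAAS-blocked and 102 ± 41.4 FPKM in untreated libraries, Trpv4, a calcium channel (log2 difference -0.28 ± 0.13), and Gna11, a G protein subunit through which the angiotensin receptor signals (log2 difference -0.14 ± 0.07). Their limma adjusted p values were 0.804, 0.804 and 0.810. Agtr1a, the receptor blocked by losartan, was between 66.9 and 182 FPKM (median 109) in RAAS-blocked and between 36.2 and 164 FPKM (median 81.9) in untreated libraries, so it was present in every library and the groups overlapped.

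Among 27 tested transcription regulators of renin cells, 13 had higher and 14 lower means, and 0 passed. Nr2f1, an orphan nuclear receptor of the COUP-TF type, had the lowest p. It was between 8.50 and 20.1 FPKM (median 14.9) in RAAS-blocked and between 3.94 and 12.1 FPKM (median 7.62) in untreated libraries, a log2 difference of 0.71 ± 0.20 (SE, limma adjusted p = 0.510). The groups overlapped, since 3 untreated libraries exceeded the lowest RAAS-blocked value, that of replicate 4. Usf2, an E box factor, was at 38.2 ± 3 FPKM in RAAS-blocked and 42.8 ± 2.94 FPKM in untreated libraries (log2 difference -0.16 ± 0.06, limma adjusted p = 0.716). Rarb, a retinoic acid receptor, differed by -0.38 ± 0.22 on the log2 scale (SE).

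No gene of the lists for cells around renin cells passed the test. Of 15 juxtaglomerular and pericyte genes, 11 had higher means (73.3%, beside 44.7% of all tested genes), the median log2 difference was 0.20, and 0 passed. Rgs5, a pericyte regulator of G protein signalling, was at 93.9 ± 21.3 FPKM in RAAS-blocked and 67.1 ± 14.6 FPKM in untreated libraries (log2 difference 0.48 ± 0.16, SE, limma adjusted p = 0.676). Gja5, the connexin that couples renin cells to the endothelium, was at 48.7 ± 14.8 FPKM in RAAS-blocked and 32 ± 13.5 FPKM in untreated libraries (log2 difference 0.63 ± 0.25, limma adjusted p = 0.755). Gucy1a3, a subunit of the nitric oxide receptor, differed by 0.57 ± 0.28 and Notch3 by 0.24 ± 0.20 on the log2 scale. Of 13 smooth muscle contractile genes, 11 had higher means, the median log2 difference was 0.44, 5 (38.5%, beside 6.13% of all tested genes) had an unadjusted limma p under 0.05 and 0 passed. Cald1 (caldesmon) was at 194 ± 43.7 FPKM in RAAS-blocked and 136 ± 44.2 FPKM in untreated libraries (limma adjusted p = 0.737), and Synpo2, Lmod1 and Tpm2 differed by 0.28 ± 0.09, 0.49 ± 0.19 and 0.61 ± 0.25 on the log2 scale. Of 9 mesangial genes 6 had higher means, the median log2 difference was 0.14, and 0 passed. Among them Pdgfrb (0.425 ± 0.240), Gata3 (0.41 ± 0.23), Serpine2 (0.41 ± 0.31) and Sfrp2 (-0.425 ± 0.325) had the lowest p values.

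Of 15 tested genes of prorenin processing, granules and exocytosis, 3 had higher and 12 lower means (44.7% of all tested genes had higher ones), and 0 passed. Lyst, the gene of the mouse beige mutation, whose renin granules are enlarged, differed by 0.23 ± 0.14 (SE), Vamp2, a vesicle protein of exocytosis, by -0.22 ± 0.17, Pcsk5, a prohormone convertase, by -0.15 ± 0.13 and Atp6ap2, the prorenin receptor, by -0.09 ± 0.07 on the log2 scale. Of 16 tested other RAAS components 4 had higher and 12 lower means and 0 passed. The lowest p values besides that of Agtr1a belonged to Kng1 (kininogen, -0.386 ± 0.215), Rnpep (an aminopeptidase, 0.285 ± 0.171) and Agtrap (a protein bound to the type 1 receptor, -0.108 ± 0.075).

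Markers of further cell types were read in the same way. The counts with higher means were 4 of 7 for macula densa genes, 2 of 8 for the thick ascending limb, 2 of 11 for podocytes, 0 of 10 for glomerular endothelium, 1 of 11 for the proximal tubule, 5 of 6 for fibroblasts, 8 of 8 for leukocytes and 0 of 1 for the adrenal cortex, beside 44.7% of all tested genes. Markers of 1 cell type can vary together between libraries, so the members of a list are not independent. Of any of these lists 0 genes passed. At an unadjusted limma p under 0.05 there were 3 of the 6 fibroblast genes (beside 6.13% of all tested genes; median log2 difference 0.56) and 1 of the 10 endothelial genes (10.0%). The lowest p in all of them was that of Col3a1, a fibrillar collagen of fibroblasts, between 3.76 and 10.1 FPKM (median 7.73) in RAAS-blocked and between 0.863 and 5.79 FPKM (median 2.39) in untreated libraries (log2 difference 1.12 ± 0.235, SE, limma adjusted p = 0.222). Its r with Ren1 was -0.16 across RAAS-blocked and 0.37 across untreated libraries. Kdr, the endothelial receptor of VEGF, was at 286 ± 108 FPKM in RAAS-blocked and 381 ± 97.6 FPKM in untreated libraries (log2 difference -0.45 ± 0.21).

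The question of which genes follow Ren1 between mice was taken to all tested genes, as a description. Of 13284 genes, 2091 (15.7%) had an r of at least 0.7 with Ren1 across the 7 RAAS-blocked libraries, 894 (6.73%) across the 9 untreated ones, and 145 (1.09%) in both. Another 51 (0.384%) had an r of -0.7 or less in both. The named genes with the highest lower r were Ddx28 (an RNA helicase; r 0.925 in RAAS-blocked and 0.915 in untreated libraries), Ap2s1 (a subunit of the AP2 endocytic adaptor; 0.912 and 0.882), Txnl4a (a spliceosome protein; 0.928 and 0.880) and Pfn1 (profilin, which binds actin; 0.870 and 0.872). They were followed by Clta (a clathrin light chain; 0.961 and 0.859), Akr1b7 itself (0.970 and 0.856), Limd2 (a LIM domain protein; 0.898 and 0.839) and Cln8 (a protein of the endoplasmic reticulum; 0.837 and 0.849). The most opposite were Zzz3 (-0.931 and -0.853), Col4a3bp (a ceramide transfer protein; -0.931 and -0.832), Rev3l (a DNA polymerase subunit; -0.852 and -0.905) and Myst4 (a histone acetyltransferase; -0.850 and -0.905).

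**Figure D4:**
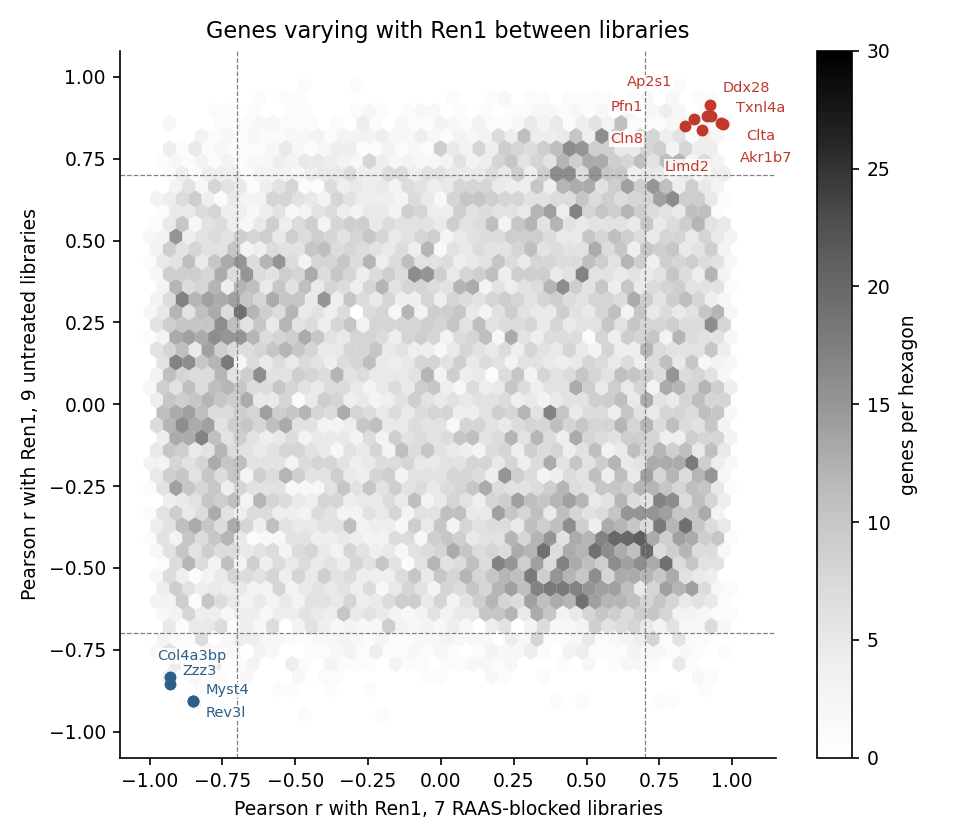
Pearson r with Ren1 across 7 RAAS-blocked libraries (horizontal) and 9 untreated libraries (vertical) for 13284 genes, binned in hexagons shaded by the number of genes, with named followers in red, named opposites in blue and dashed lines at 0.7 and -0.7. Genes fill the plane, and 145 lie past 0.7 on both axes.

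Of these named followers and opposites other than Akr1b7, none passed the test between the groups. Ddx28 was between 3.02 and 5.88 FPKM in RAAS-blocked and between 4.07 and 5.53 FPKM in untreated libraries, with a log2 difference of -0.08 ± 0.09 (SE, limma adjusted p = 0.932). Clta was at 86.1 FPKM in RAAS_blocked replicate 4 and between 113 and 128 FPKM in the other RAAS-blocked libraries, and at 154 FPKM in untreated replicate 3 and between 110 and 125 FPKM in the other untreated libraries. Of the 8 leading followers just named, Limd2 had the largest log2 difference other than Akr1b7, 0.35 ± 0.21 (limma adjusted p = 0.854). The extreme libraries carried most of these relations. Of the 145, 1 gene (Ddx28, r 0.712 and 0.907) still had an r of at least 0.7 in both groups without RAAS_blocked replicate 4 and untreated replicate 3. In all 10 genes (0.0753%) met the threshold in those remaining libraries. Among the genes most like Akr1b7 were Arf5 (a small GTPase; r 0.873 in RAAS-blocked and 0.916 in untreated libraries), Ren1 (0.970 and 0.856) and Anxa6 (an annexin; 0.837 and 0.829). Of the 145 followers of Ren1, 38 also followed Akr1b7, which is 26.2% of the Ren1 followers and 42.7% of the 89 Akr1b7 followers (0.67% of all genes). Since Ren1 and Akr1b7 varied together in these same libraries, they were bound to share followers, and nothing is read from the overlap.

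Followers of Ren1 had short transcripts. Their median GENCODE transcript length was 1964 bases, against 5264 bases for the 51 opposite genes and 3061 bases for all tested genes with a length (95.4% of them). A length index was therefore computed per library, the mean log2 level of the 1267 tested genes with the shortest transcripts minus that of the 1267 with the longest, centred over the libraries. It ran from -0.43 to 0.26 in RAAS-blocked libraries, lowest in replicate 4, and from -0.23 to 0.24 in untreated ones. Since the index was built after genes chosen by their r with Ren1 in these libraries were found to be short, its relation to either gene is given as a description with no test. For Ren1, r with the index was 0.916 and rho 0.857 across RAAS-blocked libraries, and r was 0.195 and rho 0.083 across untreated ones. With the 2 RAAS-blocked libraries farthest from the median index left out r was 0.694, and without replicate 4 it was 0.888. For Akr1b7, r was 0.855 and rho 0.75 in RAAS-blocked libraries, and r was 0.490 and rho 0.467 in untreated ones. Without RAAS_blocked replicate 4 its r was 0.659. With the index regressed out within each group, an alternative added after the data were seen, the r between Ren1 and Akr1b7 was 0.896 in RAAS-blocked and 0.889 in untreated libraries. The part of the index in the level of either gene was not tested.

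Ren1 was then set against the mean log2(FPKM + 1) of 15 gene lists in each group, 30 relations in all. A single relation passed adjustment, that with macula densa genes across RAAS-blocked libraries (r 0.898, exact permutation p = 0.000397, adjusted p = 0.0119; rho 0.964, exact permutation p = 0.00278, adjusted p = 0.0833). The macula densa is the patch of tubule cells at the glomerular pole that signals salt delivery to renin cells. With the 2 libraries farthest from the median Ren1 left out r was 0.727. Without RAAS_blocked replicate 4 it was 0.913 with an adjusted exact permutation p of 0.0833, which no longer passed. Exact permutation p-values are coarser with fewer libraries, so the lost call cannot be told apart from the smaller group. Across untreated libraries r was -0.36 (exact permutation p = 0.332, adjusted p = 0.474; rho -0.383, exact permutation p = 0.3125, adjusted p = 0.625), and the difference between the groups was not tested. The defining genes Nos1 and Pappa2 stayed below the filter, at means of 0.417 and 0.561 FPKM in RAAS-blocked and 0.587 and 0.703 FPKM in untreated libraries, so the level rests on 7 less specific members. Of these, 3 had an r of at least 0.7 with Ren1 across RAAS-blocked libraries (15.7% of all genes did), and 1 of the 7 across untreated ones (6.73%). Avpr1a, a vasopressin receptor, had r 0.846 in RAAS-blocked and -0.51 in untreated libraries. Ptges, a prostaglandin E synthase, had r 0.751 in RAAS-blocked and -0.42 in untreated libraries, and Ptgs2 (cyclooxygenase 2, the source of prostaglandins that stimulate renin) 0.716 and 0.641. Slc9a2, a sodium-proton exchanger, had r 0.611 in RAAS-blocked and -0.46 in untreated libraries. Ccdc109b, of the mitochondrial calcium uniporter, had 0.461 and 0.754, Slc12a1, the sodium-potassium-chloride cotransporter, 0.374 and -0.43, and Robo2, a guidance receptor, -0.38 and -0.21. The members thus did not vary with Ren1 alike. Avpr1a was at 3.33 FPKM in RAAS_blocked replicate 4 and reached 13.3 FPKM in replicate 5, the library with the most Ren1.

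**Figure D5:**
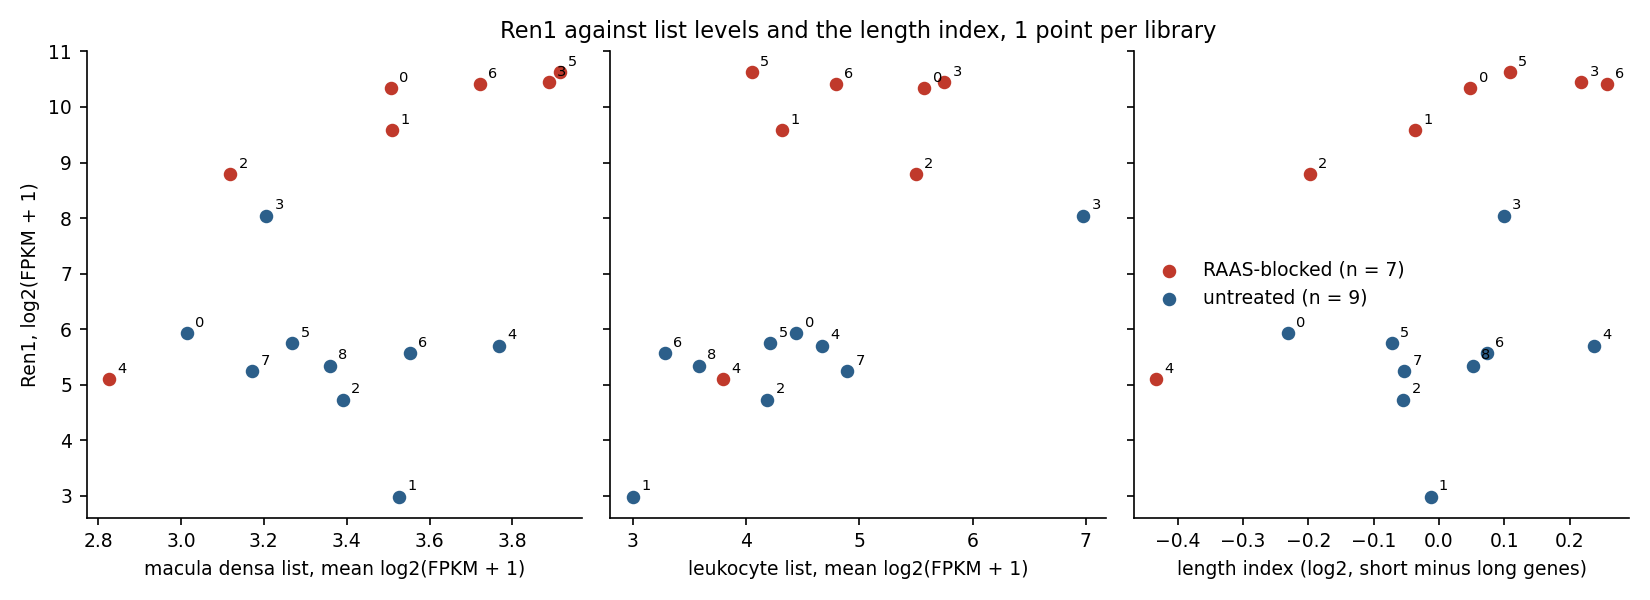
Ren1 as log2(FPKM + 1) against the mean log2(FPKM + 1) of the macula densa list (left), of the leukocyte list (middle) and the length index (right), 1 point per library, numbered by replicate. RAAS_blocked replicate 4 is lowest for the macula densa list (2.83) and the index (-0.43), and untreated replicate 3 is highest for the leukocyte list (6.98).

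The other 29 relations did not pass. Across RAAS-blocked libraries the lowest r was that with glomerular endothelial markers, -0.714 (exact permutation p = 0.0448, adjusted p = 0.316). Its rho was -0.821 (exact permutation p = 0.0341, adjusted p = 0.415). With the 2 libraries farthest from the median Ren1 left out this r was -0.17, and across untreated libraries it was 0.204 (exact permutation p = 0.627, adjusted p = 0.734). In the untreated group the highest r was with leukocyte markers (r 0.832, exact permutation p = 0.0147, adjusted p = 0.220; rho 0.600, exact permutation p = 0.0968, adjusted p = 0.415). It was followed by smooth muscle genes (r 0.75, exact permutation p = 0.0526, adjusted p = 0.316; rho 0.600, exact permutation p = 0.0968, adjusted p = 0.415) and by genes of renin stimulation and cAMP signalling (r 0.687, exact permutation p = 0.0297, adjusted p = 0.297; rho 0.617, exact permutation p = 0.0857, adjusted p = 0.415). With the 2 libraries farthest from the median Ren1 left out, these r were 0.049, 0.216 and -0.023. Across RAAS-blocked libraries the stimulation genes had r 0.095 (exact permutation p = 0.877, adjusted p = 0.877; rho -0.32, exact permutation p = 0.498, adjusted p = 0.686), and the difference between the groups was not tested. Untreated replicate 3, which had the most Ren1 and Akr1b7 of its group, had the highest level of all 8 tested leukocyte markers, a mean of 6.98, where RAAS-blocked libraries had 3.80 to 5.75 and the other untreated ones 3 to 4.90. Of those 8 markers, 7 had an r of at least 0.7 with Ren1 across untreated libraries (6.73% of all genes), and 0 had one without replicate 3 (3.87%). Untreated replicate 1, which had the least Ren1 and Akr1b7 of its group, had the lowest value of 11 of 13 smooth muscle genes (mean 3.86, beside 4.89 to 5.48 in the other untreated libraries) and the highest of 9 of 11 proximal tubule genes. Of the 13 smooth muscle genes, 7 had an r of at least 0.7 with Ren1 across untreated libraries, 0 had one without replicate 1 (6.75%), and 10 had one without replicate 3 (3.87%). What leukocyte, arteriolar or tubule RNA contributed to these Ren1 values was not tested.

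Rgs5 was the juxtaglomerular and pericyte gene whose untreated values lay closest to those of Ren1. It was at 110, 131, 92.4, 76.1, 89.8, 90.2 and 67.4 FPKM in RAAS-blocked replicates 0 to 6, and replicate 4, with little Ren1, was not low for Rgs5. It was at 81.0, 36.1, 56.7, 84.7, 68.5, 76.9, 69.4, 68.6 and 62.2 FPKM in untreated replicates 0 to 8, lowest in replicate 1 and highest in replicate 3, as Ren1 was. Across the 7 RAAS-blocked libraries its r with Ren1 was -0.08, between -0.38 and 0.09 when each library was left out in turn. Across the 9 untreated libraries its r was 0.896, between 0.80 and 0.982 on leaving out each library. Notch3, a receptor of arteriolar smooth muscle and pericytes, had r 0.233 in RAAS-blocked and 0.801 in untreated libraries (0.602 without untreated replicate 1). Rgs5 was picked for its untreated r from the 15 tested genes of its list. Of those 15, 3 had an r of at least 0.7 with Ren1 across untreated libraries (6.73% of all genes), and 0 across RAAS-blocked ones (15.7%). Others went the opposite way across untreated libraries, such as Kcnj8 (r -0.61) and Abcc9 (r -0.20). The mean of the list had r 0.609 there (exact permutation p = 0.078, adjusted p = 0.390). Whether the r of Rgs5 or Notch3 differ between the groups was not tested.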

How the data were processed

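RNA from glomeruli that had been loaded with iron and collected by magnet from 1 kidney per mouse was sequenced after the Illumina TruSeq mRNA v2 kit, per the labels' protocols. The authors deposited 1 table of FPKM values, with 1 column per library. Per the submitters' processing notes, the tools included TopHat2 2.0.8, Cuffdiff 2.2.1, Cufflinks, FastQC and CASAVA 1.8.2, whose roles and order are not stated. The sources used here do not give the genome build, the annotation or the use of strand, and reads of overlapping genes may be mixed. There are no counts in the table, so depth is unknown and no counting interval is given. FPKM depends on all RNAs counted, and very abundant ones lower the rest.

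The members and the 18 gene lists were chosen with earlier results of these data known. Values were used as log2(FPKM + 1). The 13286 genes that reached 1 FPKM in 7 or more libraries were tested with limma 3.58.1 in R 4.3.3, with group as the only term, a variance trend, robust moderation and Benjamini-Hochberg adjustment at 0.05. The p-values measure the spread between libraries, which may be technical. Correlations between Ren1 and Akr1b7 or a list level have exact two-sided permutation p-values over all pairings within a group, and the other r are descriptions. List levels are means over tested genes, members left out, and the adrenal, aldo-keto reductase and aspartic protease lists were not correlated. A gene followed Ren1 at an r of at least 0.7. The functions were tested on simulated data.

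Named genes are the members, the 8 named genes with the highest lower within-group r with Ren1 and the 4 most opposite, 4 that follow Akr1b7, up to 4 per list with the lowest p, all aldo-keto reductases and aspartic proteases with a mean of at least 1 FPKM in a group, and genes past the threshold; some genes it takes are not reported here. Markers that describe libraries, and defining genes of a list, are named besides. Sequences and coordinates are from RefSeq (GRCm38.p6), transcript lengths and 50-base windows from GENCODE vM21. Alternatives covered pseudocount, filter, scaling, Spearman, medians, a replicate block and each library left out, and, added after the data were seen, regression on the length index and joint removal of 2 libraries.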

Additional observations from a re-analysis of the deposited data

Results flagged for a closer look

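Libraries were compared with the rest of their own group, and 31 of 376 ends of groups examined (188 groups of values) lay far from their nearest neighbour by Dixon's criterion. Chance gives about 1 in 20 groups where values are normally distributed, which FPKM need not be. Ren1 and Akr1b7 were examined both as FPKM and as log2(FPKM + 1). Each of their flags arose on the scale named below and not on the other. No explanation was tested for any flag.

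RAAS_blocked replicate 4 was lowest in its group for Ren1 (5.107 as log2(FPKM + 1)), Akr1b7 (1.886 as log2(FPKM + 1)), Ap2s1 (51.157 FPKM), Clta (86.0733 FPKM) and Cln8 (3.3678 FPKM), and for symbols above 0 (16919). It was highest for Rn18s (9924.91 FPKM), Kdr (504.616 FPKM), Sfrp2 (243.901 FPKM), Col4a3bp (33.1721 FPKM), Zzz3 (21.1551 FPKM) and Rev3l (7.6942 FPKM). Followers of Ren1 and genes opposite to it were chosen by their r in these same libraries, where replicate 4 has the lowest Ren1 of its group and untreated replicate 3 the highest, so the choice favoured their standing apart there and the count is not comparable with chance.

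Untreated replicate 3 was highest in its group for Ren1 (263.225 FPKM), Akr1b7 (16.7879 FPKM), Lyz2 (lysozyme of macrophages, 784.663 FPKM), Pfn1 (751.774 FPKM), Clta (154.335 FPKM), Limd2 (21.9187 FPKM), Dcn (decorin, of fibroblasts, 13.9247 FPKM), Cln8 (8.5659 FPKM) and Ptgir (7.7354 FPKM). Its mean log2 level of leukocyte markers (6.977) and of prorenin processing and granule genes (6.135) was highest too.

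Untreated replicate 1 had the lowest smooth muscle level (3.859) and the highest Akr1c13 (13.5369 FPKM) and Myst4 (10.0753 FPKM). Untreated replicate 0 had the highest Ptgs2 (8.457 FPKM) and the highest level of renin inhibition genes (4.577). RAAS_blocked replicate 6 was highest for Vamp2 (165.955 FPKM) and Crem (39.1155 FPKM), and RAAS_blocked replicate 0 for Bace2 (12.2908 FPKM).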

How the results depend on the processing

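The log2 differences of Ren1 and Akr1b7 kept their sign throughout. On leaving out each library they ran from 3.54 to 4.56 for Ren1 and from 1.19 to 1.71 for Akr1b7. The number of genes past the threshold, 2 over all libraries, was 1 with upper-quartile scaling, 1 with the replicate block and between 1 and 6 on leaving out each library. It was 6 without RAAS_blocked replicate 4. Ren1 and Akr1b7, chosen for this contrast, are not left out of these counts, and nothing is read from that. Mgat1, which was lower under blockade, lost its call in 14 of these settings.

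Replicate numbers are shared by the groups. The deviations of same-numbered libraries had r from -0.28 to 0.43, with r over 0.1 in 4 of 7 pairs. Of the 7, 1 resembled its own number most, so the numbers were not taken as pairs. With the replicate block Ren1 differed by 3.80 and Akr1b7 by 1.32.

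Between Ren1 and Akr1b7, rho in place of r gave 0.679 in RAAS-blocked and 0.683 in untreated libraries, neither past the threshold. Leaving out each library gave r from 0.669 to 0.99 in RAAS-blocked libraries, past the threshold in 5 of 7, and from 0.687 to 0.911 in untreated libraries, past it in 9 of 9. The 1 list relation that passed became 0 with rho and 0 without RAAS_blocked replicate 4. Its r was 0.913 without that library, where exact permutation p-values are coarser, and 0.898 with it. The 145 genes that follow Ren1 in both groups became 10 with rho, 78 with upper-quartile scaling, between 17 (without RAAS_blocked replicate 4) and 256 (without RAAS_blocked replicate 5) on leaving out each library, 75 without untreated replicate 3, 10 without RAAS_blocked replicate 4 and untreated replicate 3 together (1 shared with the 145), and 434 with the length index regressed out (62 shared). The cause of these moves was not tested. Groups of 7 and 9 libraries and an unknown depth limit what the low genes can show.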
